A study of Coprinopsis cinerea with 10 samples.

Results

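The ribosome biogenesis genes of the ink cap mushroom Coprinopsis cinerea are described here over 5 stages of its life cycle. They were taken by product name, as the genes whose annotated product names ribosome biogenesis or assembly, rRNA, the U3 snoRNA, another snoRNA or snoRNP, a nucleolar protein or RNA polymerase I, leaving out ribosomal proteins and mitochondrial products. The rule found 43 of the 13320 genes measured, and it uses no expression value. RNA came from vegetative mycelium and from 4 stages of fruiting. Initials measured about 2 mm, stage 2 primordia about 1 cm and young fruiting bodies about 2 cm, and from mature fruiting bodies of about 4 cm the cap was taken. Each stage had 2 biological replicates and each replicate was hybridised to its own one-colour NimbleGen array. All groups shared 1 strain, a dikaryon (a mycelium whose cells hold a nucleus of each mating partner) of 50% Okayama-7 origin that had been crossed back to that sequenced strain for 5 generations and was about 98.44% homologous to it. Mycelium was grown at 37 °C and a replicate pooled 5 plates. Fruiting was induced at 25 °C with 12 h of light and 12 h of dark and a replicate held 4 to 5 structures. Temperature and the material pooled can therefore not be told apart from stage between mycelium and the other stages. The same holds for the light cycle, which is given for the fruiting stages only. Tissue and stage cannot be told apart for the mature sample, which was cap alone.

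Ribosomes are built in the nucleolus, where RNA polymerase I transcribes the ribosomal RNA precursor. The U3 snoRNP and the small subunit processome fold and cut the part of the precursor that becomes the small subunit. Small nucleolar RNPs of the box C/D and H/ACA classes guide ribose methylation and pseudouridylation. Helicases, ATPases and further assembly factors mature the large subunit and release both for export. In budding yeast, where nearly all of these factors were first characterised and from which the roles below are taken, their genes are known to be switched on and off together with growth.

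The median intensity of all genes lay between 3268 and 3403 on the 10 arrays, and no member was at or under the floor (4 times the random-sequence control probes, 89.4 to 117 intensity units) on any array. The number of arrays limits the precision. As a check of the stage labels, galectin-1 (CC1G_05003), a fruiting body lectin, had log2 intensities of 13.88 and 13.84 in initials, against 11.61 and 11.67 in mycelium. In mature caps it had 9.46 and 9.28, below mycelium. A single slide carried all 10 arrays with the stages placed one after another, and position on it cannot be told apart from stage. The typical difference between the replicates of a stage was 1.1 to 1.31 times the noise between probe blocks of 1 array for mycelium, initials and young fruiting bodies, and 2.52 and 2.61 times that noise for primordia and mature caps. Over the members alone that ratio lay between 0.832 and 1.97. The labels call the replicates biological samples but do not name separate cultures, so the p-values measure the spread between these samples, which may be technical.

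As a group the members were low in mycelium, higher in initials and higher again in primordia, showed no common direction between primordium and young fruiting body, and came down in part in the mature cap. The median member stood 0.26 log2 units over its own mycelium mean on both arrays of the initials, 0.45 on both of the primordia, 0.47 and 0.52 on those of the young fruiting bodies, and 0.17 and 0.11 on those of the mature caps. The same median over all genes stayed between 0.02 and 0.07 on these 8 arrays. Most single members moved by small amounts: 11 of 43 members (25.6%) had a range of at least 2-fold over the stage means, against 47.6% of all genes. All 43 members varied over the stages by the limma F test at an adjusted p under 0.05, a test that 89.8% of all genes passed.

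**Figure D1:**
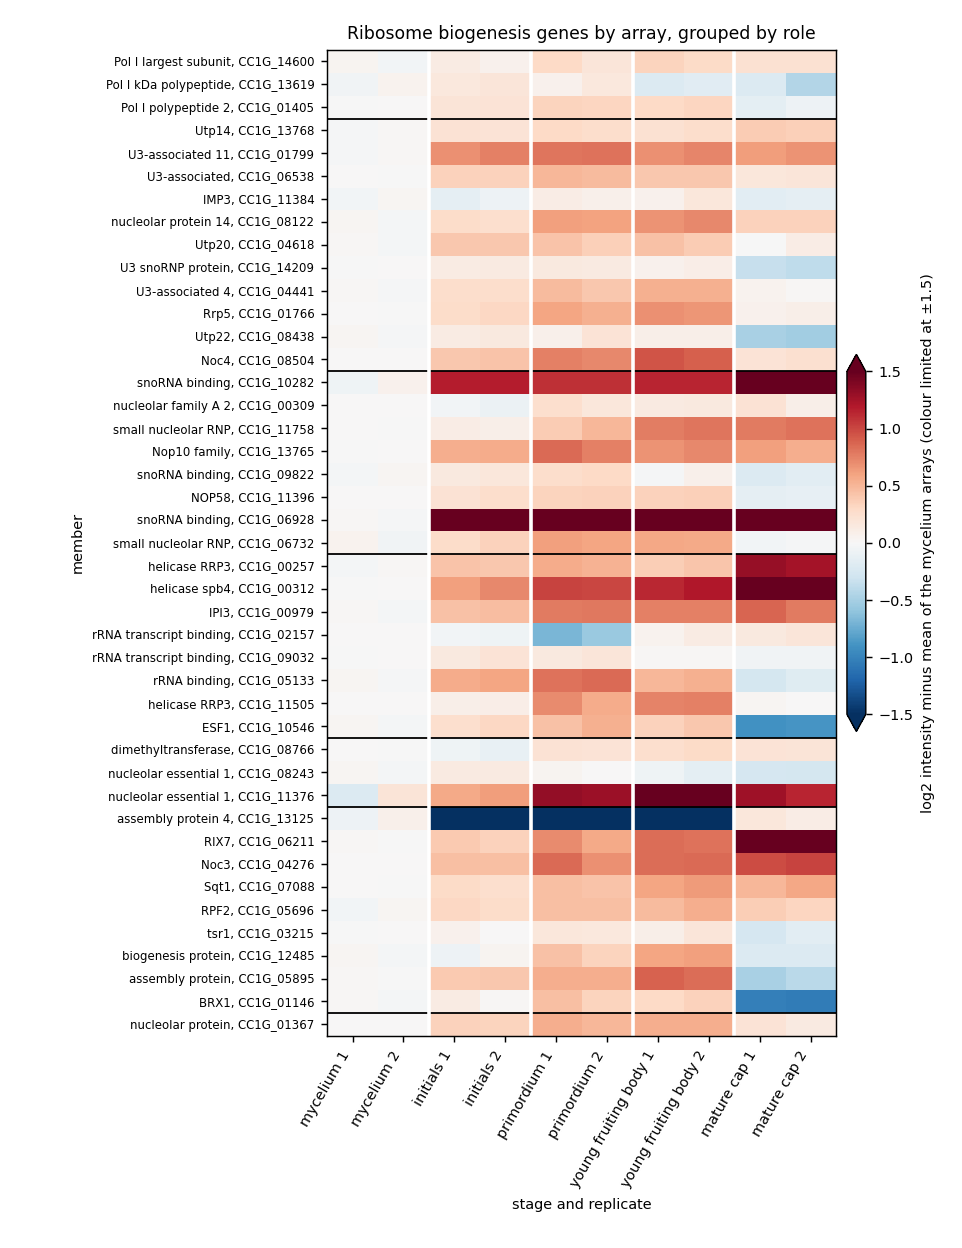
Log2 intensity of each of the 43 members (down the page, grouped by role and divided by black lines) on each of the 10 arrays (across), minus the mean of the 2 mycelium arrays of the same gene; red is higher and blue lower than mycelium, and colours are limited at 1.5 log2 units. Most members are redder in primordia and young fruiting bodies than in mycelium and pale or blue in mature caps, while ribosome assembly protein 4 (CC1G_13125) is dark blue in the 3 stages in between.

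No member had its highest stage mean in mycelium, against 25% of all genes, and 23 of 43 (53.5%) had their lowest there, against 28.7% of all genes. The young fruiting body held the highest mean of 17 members (39.5%, against 18% of all genes) and the primordium that of 13 (30.2%, against 9.64%). The mature cap was the highest stage of 10 members (23.3%, against 34%) and the initials that of 3 (6.98%, against 13.4%). The lowest mean lay in the mature cap for 16 members (37.2%, against 32% of all genes), in the initials for 2 (4.65%, against 13.1%), in the primordium for 1 (2.33%, against 8.05%) and in the young fruiting body for 1 (2.33%, against 18.3%). Many neighbouring stage means in these orders differed by less than the test could call, above all those of primordium and young fruiting body.

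**Figure D2:**
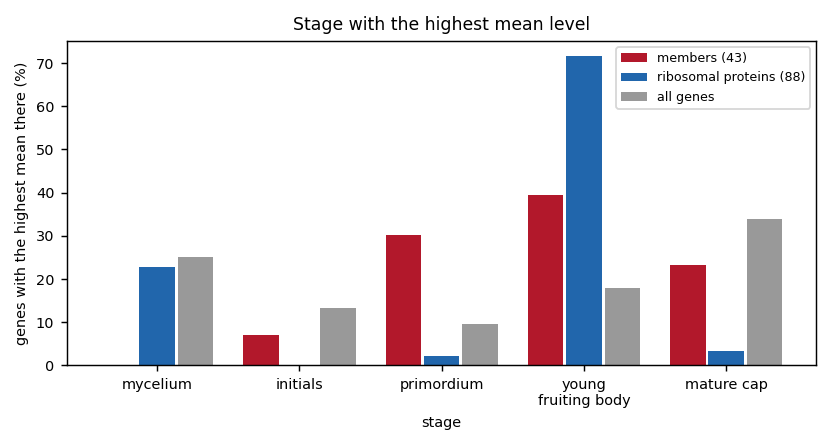
Share of genes, in percent, whose highest stage mean fell in each stage, for the 43 members (red), the 88 ribosomal proteins (blue) and all 13320 genes (grey). Members peaked most often in the young fruiting body (39.5%) and the primordium (30.2%), and ribosomal proteins in the young fruiting body (71.6%).

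In fruiting initials, 31 of 43 members rose and 2 fell against mycelium at a limma adjusted p under 0.05 over all genes, where 37.5% of all genes rose and 33.7% fell (71.1% either way). The median log2 change was 0.26 for the members and 0.02 for all genes. In primordia, 30 members rose and 2 fell against initials, where 23.5% of all genes rose and 24.5% fell (48% either way), with a median of 0.17 for the members. In young fruiting bodies, 9 members rose and 8 fell against primordia, where 24% of all genes rose and 24.8% fell (48.8% either way), and the median was 0.02. No member changed at least 2-fold at these 2 steps, where 2.23% of all genes rose and 1.72% fell that far in primordia, and 2.58% rose and 1.99% fell in young fruiting bodies. In mature caps, 26 members fell and 7 rose against young fruiting bodies, where 40.7% of all genes fell and 38.3% rose (79% either way), with a median of -0.23 for the members and 0.02 for all genes. The neighbouring steps share arrays, so a high or low stage enters the step before and the step after it.

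**Figure D3:**
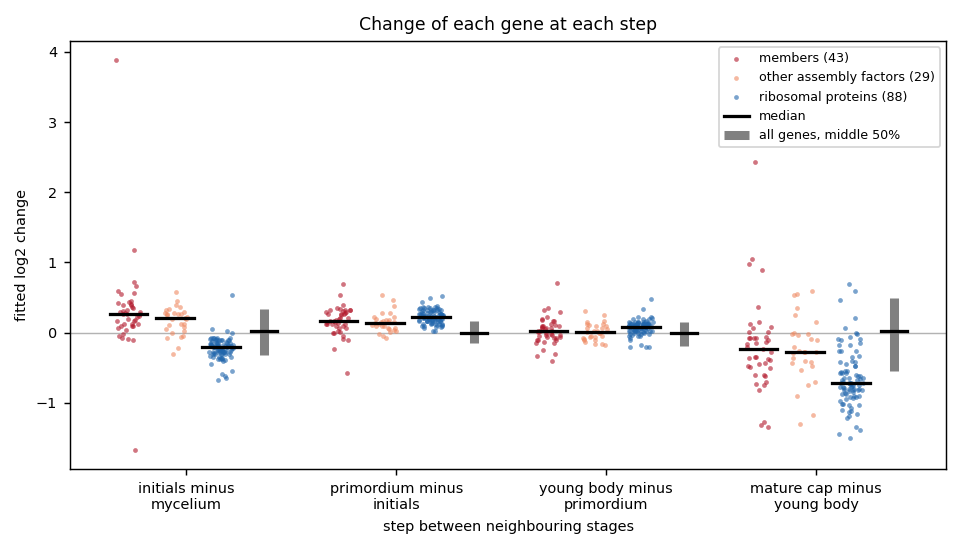
Fitted log2 change (later minus earlier stage) of each gene at the 4 steps between neighbouring stages. Shown are the 43 members, 29 genes taken by name as other assembly factors, and 88 ribosomal proteins. Black lines are medians and grey bars the middle 50% of all 13320 genes. In initials the members have a median of 0.26 and ribosomal proteins of -0.20, and in mature caps the medians are -0.23 and -0.72.

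Set directly against mycelium, 35 members were higher and 2 lower in young fruiting bodies, where 40.6% of all genes were higher and 34.1% lower (74.7% either way), and the median log2 difference was 0.51. The mature cap held 22 members above and 14 below mycelium, where 40.7% of all genes were above and 40% below (80.7% either way), with a median of 0.15. These comparisons share the mycelium arrays. A change of level cannot be told apart here from a change in the share of cells that express a gene, and each level is relative to all RNA on the array.

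The set held 3 RNA polymerase I subunits. In initials 1 rose (37.5% of all genes did), in primordia 2 rose (23.5%) and in mature caps 1 fell (40.7%). Both rises in primordia were small, 0.12 and 0.15, and were lost without initials replicate 1 or without primordium replicate 1, and that of CC1G_14600 also without initials replicate 2. The second polypeptide of the enzyme (CC1G_01405, DNA-directed RNA polymerase I polypeptide 2), part of its catalytic core, had log2 intensities of 12.50 and 12.51 in mycelium, 12.70 and 12.72 in initials, 12.84 and 12.83 in primordia, 12.81 and 12.83 in young fruiting bodies, and 12.36 and 12.43 in mature caps. It rose by 0.20 ± 0.0309 (SE) in initials and fell by 0.43 ± 0.0309 in mature caps (limma adjusted p = 1.11e-05). Its cap level was 0.11 below mycelium, a call lost without mycelium replicate 2 or mature cap replicate 1. The largest subunit (CC1G_14600), which forms the rest of that core, was among the 5 members with the narrowest range, 0.31 log2 units, and its cap value differed from the young fruiting body by -0.08 ± 0.0487 (limma adjusted p = 0.188). The subunit listed as kDa polypeptide (CC1G_13619) had its highest mean in initials, at 10.90 and 10.92. Neither its difference from mycelium (limma adjusted p = 0.103) nor that from primordia (limma adjusted p = 0.615) was called. The gene fell by 0.30 ± 0.0793 in young fruiting bodies against primordia, a call lost without primordium replicate 2 or without either replicate of the young fruiting bodies.

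The 11 members of the U3 snoRNP and the small subunit processome are given next. In initials 10 rose and none fell, and in primordia 6 rose and none fell. In mature caps 9 fell and 1 rose. The medians were 0.26, 0.14 and -0.36. Over all genes, 37.5% rose and 33.7% fell in initials, 23.5% and 24.5% in primordia, and 38.3% and 40.7% in mature caps. None of the 11 had a range of 2-fold, and the median range was 0.53 log2 units. Noc4 (CC1G_08504), the partner of nucleolar protein 14 in small subunit maturation, had the largest F statistic among them, with 11.65 and 11.65 in mycelium, 12.05 and 12.08 in initials, 12.40 and 12.37 in primordia, 12.59 and 12.55 in young fruiting bodies, and 11.85 and 11.89 in mature caps. The arrays of neighbouring stages did not overlap, and Noc4 was called at each step, with a fall of 0.70 ± 0.0301 in mature caps against young fruiting bodies (limma adjusted p = 7.77e-07). Nucleolar protein 14 itself (CC1G_08122) rose by 0.26 ± 0.0327 in initials and by 0.35 ± 0.0327 in primordia, where it was among the 5 largest rises, and fell by 0.35 ± 0.0327 in mature caps. U3 small nucleolar RNA-associated protein 11 (CC1G_01799), a processome subunit, made nearly all of its change in initials, with 12.27 and 12.33 there, against 11.56 and 11.60 in mycelium, a rise of 0.72 ± 0.0334 (limma adjusted p = 1.84e-06). Its later values lay between 12.21 and 12.40 and no later step was called. The change of -0.10 in young fruiting bodies against primordia (limma adjusted p = 0.0515) passed with arrays centred on their median and with a filter on dim genes.

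Rrp5 (CC1G_01766), an RNA-binding factor that both subunits need, rose by 0.29 ± 0.0317 in initials and 0.27 ± 0.0317 in primordia and fell by 0.60 ± 0.0317 in mature caps. Its rise of 0.12 in young fruiting bodies was lost without primordium replicate 2 or without either young fruiting body replicate. U3 small nucleolar RNA-associated protein 4 (CC1G_04441), which binds the precursor early, fell in mature caps by 0.49 ± 0.0351, and the U3 snoRNP protein CC1G_14209 by 0.45 ± 0.0271. Utp22 (CC1G_08438), another processome subunit, fell by 0.60 ± 0.0433 in mature caps, where it had 11.70 and 11.67, against 12.28 and 12.28 in young fruiting bodies and 12.22 and 12.17 in mycelium. The very large processome protein Utp20 (CC1G_04618) rose by 0.40 ± 0.0492 in initials and fell by 0.36 ± 0.0492 in mature caps, with no call in between. The U3 small nucleolar RNA-associated protein CC1G_06538 rose by 0.35 ± 0.0241 in initials and fell by 0.23 ± 0.0241 in mature caps. Its small fall in young fruiting bodies, by 0.08, was lost without any 1 array of the stages compared. The member not called in initials was IMP3 (CC1G_11384), which helps U3 pair with the precursor, at -0.11 ± 0.046 against mycelium (limma adjusted p = 0.0682), a difference that passed the test with block 1 of the probes alone (limma adjusted p = 0.0235). The member that rose in mature caps was Utp14 (CC1G_13768), which in yeast activates the helicase that removes U3, with 12.43 and 12.41 there, against 12.28 and 12.31 in young fruiting bodies, a rise of 0.12 ± 0.028 (limma adjusted p = 0.00586).

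Among the 8 snoRNP and snoRNA-binding members, 6 rose in initials, where 37.5% of all genes rose. In mature caps 5 fell and 1 rose, where 40.7% of all genes fell and 38.3% rose. The widest change of any member was in a snoRNA binding protein (CC1G_06928), with 8.92 and 8.88 in mycelium, 12.80 and 12.77 in initials, 12.90 and 12.80 in primordia, 12.99 and 12.91 in young fruiting bodies, and 12.40 and 12.50 in mature caps. It was low only in mycelium and rose 14.8-fold in initials, a log2 change of 3.88 ± 0.0501 (limma adjusted p = 9.53e-09), where 9.01% of all genes rose at least 2-fold. Only 2 members rose that far at this step, and the other two of the same product name are set beside it below.

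NOP58 (CC1G_11396), a core protein of box C/D snoRNPs, rose by 0.24 ± 0.0268 in initials and fell by 0.48 ± 0.0268 in mature caps, where it had 13.02 and 13.04, against 13.50 and 13.52 in young fruiting bodies. The set holds 2 core proteins of H/ACA snoRNPs. The Nop10 family protein (CC1G_13765) had 11.98 and 11.91 in mature caps and 11.35 and 11.37 in mycelium, 0.59 ± 0.0432 higher in caps, and its cap level differed from the young fruiting body by -0.11 ± 0.0432 (limma adjusted p = 0.0464). That call was lost under 10 of 13 other settings, among them without either young fruiting body replicate and without mature cap replicate 2. Nucleolar protein family A member 2 (CC1G_00309), the animal name of the H/ACA protein Nhp2, kept within 0.27 log2 units over all stages and changed by 0.01 ± 0.0487 between young fruiting body and mature cap (limma adjusted p = 0.856). The small nucleolar RNP protein CC1G_11758 rose in primordia by 0.34 ± 0.0416 and again in young fruiting bodies by 0.35 ± 0.0416, and its values in mature caps, 12.95 and 12.98, overlapped those of young fruiting bodies, 12.94 and 12.97. The small nucleolar ribonucleoprotein CC1G_06732 fell by 0.61 ± 0.0401 in mature caps.

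Of the 8 members of rRNA processing, 6 rose and none fell in initials, where 37.5% of all genes rose and 33.7% fell. In primordia 6 rose and 1 fell, where 23.5% of all genes rose and 24.5% fell. In mature caps 2 rose and 3 fell, where 38.3% of all genes rose and 40.7% fell. The helicase spb4 (CC1G_00312), which acts in large subunit maturation, was higher at every step, with 10.55 and 10.57 in mycelium, 11.18 and 11.28 in initials, 11.57 and 11.56 in primordia, 11.69 and 11.76 in young fruiting bodies, and 12.09 and 12.09 in mature caps. No array of a stage overlapped the stage before it, and all 4 steps were called. The step in young fruiting bodies, 0.16, was lost without primordium replicate 2 or young fruiting body replicate 2. The mature cap stood 2.89-fold above mycelium (1.53 ± 0.0402, limma adjusted p = 5.3e-08). ESF1 (CC1G_10546), a processome-linked factor, went the other way in mature caps, with 10.92 and 10.95 there, against 12.17 and 12.23 in young fruiting bodies. It fell by 1.27 ± 0.0464 (limma adjusted p = 3.68e-07) to below its mycelium values of 11.86 and 11.80. IPI3 (CC1G_00979), of a complex that helps release the large subunit, rose by 0.45 ± 0.0356 in initials and 0.33 ± 0.0356 in primordia. Later changes were within 0.07 log2 units and not called. The change in mature caps against young fruiting bodies passed the test with quantile normalization and with arrays centred on their median. The rRNA binding protein CC1G_05133 peaked in primordia at 11.93 and 11.96 and then fell by 0.33 ± 0.0363 in young fruiting bodies and by 0.74 ± 0.0363 in mature caps.

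Of the 3 members that methylate rRNA, 2 carry the name nucleolar essential protein 1 and are taken up below. The rRNA (adenine-N6,N6-)-dimethyltransferase (CC1G_08766), which modifies adjacent adenines of the small subunit rRNA, was 1 of the 2 members that fell in initials, by 0.09 ± 0.0303 (limma adjusted p = 0.0369). That small call was lost without either mycelium replicate or initials replicate 2, with block 2 of the probes alone and with only the 2 stages in the fit. In primordia the gene had 12.80 and 12.78, against 12.51 and 12.47 in initials, a rise of 0.30 ± 0.0303, and no later step was called.

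The 9 assembly and export factors held the largest opposite movements. In primordia 8 rose and 1 fell, where 23.5% of all genes rose and 24.5% fell. In mature caps 5 fell and 3 rose, where 40.7% of all genes fell and 38.3% rose. BRX1 (CC1G_01146), an early large subunit factor, had 10.66 and 10.64 in mature caps, against 11.99 and 12.03 in young fruiting bodies, a fall of 1.35 ± 0.0511 (limma adjusted p = 4.25e-07). Its cap arrays lay below those of every other stage. It was the only member called and at least 2-fold lower in mature caps than in mycelium (-1.03 ± 0.0511), where 17% of all genes were. At least 2-fold higher in that comparison were 6 members, where 14.8% of all genes were. The ribosome assembly protein CC1G_05895 rose by 0.39 ± 0.0364 in initials and 0.32 ± 0.0364 in young fruiting bodies, where it had 12.56 and 12.52, and fell by 1.31 ± 0.0364 in mature caps (limma adjusted p = 1.08e-07). The ribosome biogenesis protein CC1G_12485 was level between initials and mycelium (-0.02 ± 0.0551), rose by 0.40 ± 0.0551 in primordia and by 0.22 ± 0.0551 in young fruiting bodies and fell by 0.81 ± 0.0551 in mature caps. The call in young fruiting bodies was lost without primordium replicate 2 or without either young fruiting body replicate.

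RIX7 (CC1G_06211), an ATPase that strips a factor from the maturing large subunit, had 11.60 and 11.57 in mycelium, 11.97 and 11.92 in initials, 12.29 and 12.15 in primordia, 12.42 and 12.40 in young fruiting bodies, and 13.37 and 13.42 in mature caps. It was called higher at all 4 steps, but that in young fruiting bodies, 0.19, was lost without either of their replicates. The rise in mature caps of 0.98 ± 0.0486 (limma adjusted p = 1.6e-06) was the largest of them. Nucleolar complex-associated protein 3 (CC1G_04276), a large subunit transport factor that in yeast also acts at replication origins, was likewise highest in mature caps, 1.98-fold above mycelium (0.99 ± 0.0545). Its last step, 0.15 ± 0.0545 with a limma adjusted p of 0.0409, was lost without any 1 of the arrays of young fruiting bodies or mature caps and with block 2 of the probes alone.

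Sqt1 (CC1G_07088), the chaperone of a large subunit protein, rose by 0.27 ± 0.0364, 0.17 ± 0.0364 and 0.17 ± 0.0364 over the 3 steps to the young fruiting body. The rise in primordia was lost without initials replicate 2 and that in young fruiting bodies without young fruiting body replicate 2. Its difference in mature caps was not called (-0.07 ± 0.0364, limma adjusted p = 0.109). RPF2 (CC1G_05696), which brings a small ribosomal RNA into the large subunit, stayed 0.35 ± 0.0406 higher in mature caps than in mycelium after a fall of 0.16 ± 0.0406 that was lost without young fruiting body replicate 2. The small subunit factor tsr1 (CC1G_03215) differed by 0.13 ± 0.045 between primordia and initials (limma adjusted p = 0.0495). That call was lost under 12 of 13 other settings, among them without any 1 array of either stage. The gene fell by 0.34 ± 0.045 in mature caps. The unnumbered nucleolar protein CC1G_01367, the remaining member, rose by 0.33 ± 0.0317 in initials and 0.19 ± 0.0317 in primordia and fell by 0.38 ± 0.0317 in mature caps.

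Ribosome assembly protein 4 (CC1G_13125) ran against most other members. Its yeast namesake is a large subunit factor that the ATPase midasin pulls off the particle. It had 9.72 and 9.88 in mycelium, 8.20 and 8.08 in initials, 7.88 and 7.94 in primordia, 7.47 and 7.55 in young fruiting bodies, and 9.97 and 9.91 in mature caps. The gene was high in mycelium and mature caps and low in the 3 stages between, with no overlap. It fell by 1.67 ± 0.0678 in initials (limma adjusted p = 9.69e-07) and rose 5.4-fold in mature caps (2.43 ± 0.0678, limma adjusted p = 1.09e-07), where 12.3% of all genes rose at least 2-fold. Its young fruiting body intensities, 177 and 187, lay near the floor, which was 94.2 and 89.4 on those arrays. Its further fall in primordia, by 0.23 ± 0.0678, was lost without initials replicate 1 or without either primordium replicate. The midasin gene (CC1G_07173), which is not a member by name and was picked after its values were seen, rose by 0.26 ± 0.0333 in initials and by 0.54 ± 0.0333 in mature caps.

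**Figure D4:**
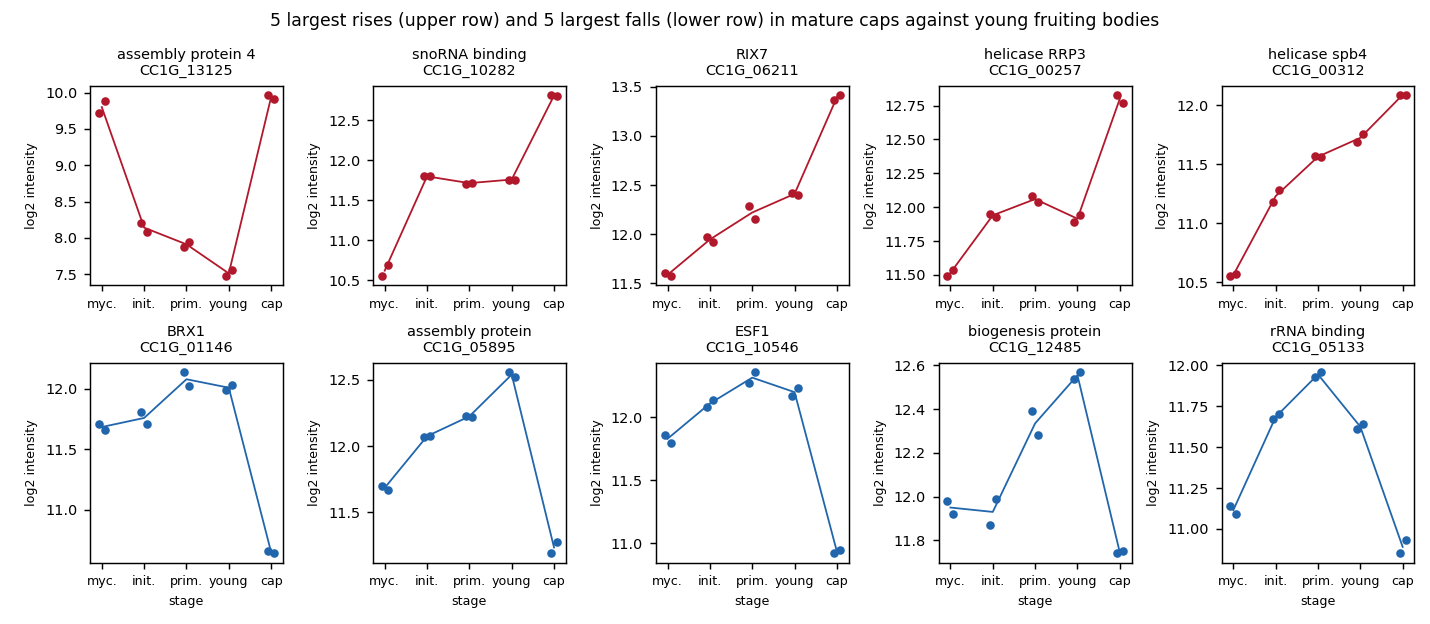
Log2 intensity (vertical axes, scaled to each gene) of the 5 members with the largest rise (upper row, red) and the 5 with the largest fall (lower row, blue) in mature caps against young fruiting bodies, at the 5 stages; points are single arrays and lines join stage means. Ribosome assembly protein 4 has 9.97 and 9.91 in mature caps, against 7.47 and 7.55 in young fruiting bodies, and BRX1 has 10.66 and 10.64, against 11.99 and 12.03.

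Members that share a product name followed different courses. There were 4 such names, held by 9 members, and whether their probes tell near-identical transcripts apart was not tested. The levels of different genes are not comparable on these arrays, but their changes are. Of the helicases named RRP3, which act in small subunit processing, CC1G_00257 had 12.83 and 12.77 in mature caps, against 11.89 and 11.94 in young fruiting bodies, and rose by 0.89 ± 0.0366 (limma adjusted p = 6.48e-07). Its namesake CC1G_11505 had 11.49 and 11.47 in mature caps, against 12.20 and 12.21 in young fruiting bodies, and fell by 0.73 ± 0.0474 (limma adjusted p = 6.5e-06). They also differed in timing on the way up: CC1G_00257 rose by 0.42 ± 0.0366 in initials, while CC1G_11505 changed there by 0.10 ± 0.0474 (limma adjusted p = 0.115) and rose by 0.54 ± 0.0474 in primordia.

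Nucleolar essential protein 1, which methylates a pseudouridine of the small subunit rRNA, was also listed at 2 genes. CC1G_08243 was highest in initials at 12.80 and 12.80 and stood 0.25 ± 0.0386 lower in mature caps than in mycelium. CC1G_11376 had 8.89 and 8.95 in young fruiting bodies, against 7.12 and 7.51 in mycelium. It was 3.04-fold higher in young fruiting bodies (1.60 ± 0.117, limma adjusted p = 1.43e-05). Its mycelium intensities, 139 and 182, lay near the floor, which was 95 and 102 on those arrays. CC1G_11376 rose by 0.70 ± 0.117 in primordia, the largest rise of any member at that step. The opposite differences of both genes in young fruiting bodies against mycelium were called, CC1G_08243 at -0.10 ± 0.0386 (limma adjusted p = 0.043), which was lost without mycelium replicate 1 or young fruiting body replicate 2.

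Besides CC1G_06928, the name snoRNA binding protein belonged to CC1G_10282 and CC1G_09822. CC1G_10282 rose by 1.18 ± 0.0451 in initials, stayed between 11.71 and 11.80 through the young fruiting body, and rose again in mature caps to 12.82 and 12.80, by 1.05 ± 0.0451 (limma adjusted p = 7.95e-07). At that step CC1G_06928 fell by 0.50 ± 0.0501 and CC1G_09822 by 0.21 ± 0.0437. CC1G_09822 had changed by 0.17 ± 0.0437 in initials (a call lost without mycelium replicate 1 or initials replicate 2) and had fallen by 0.25 ± 0.0437 in young fruiting bodies against primordia.

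Of the rRNA primary transcript binding proteins, CC1G_09032 had the narrowest range of any member, 0.23 log2 units, with values between 12.97 and 13.23 on all arrays. CC1G_02157 dipped in primordia alone, with 10.47 and 10.59 there, against 11.11 and 11.09 in initials, and had 11.20 and 11.27 in young fruiting bodies. It fell by 0.57 ± 0.045 in primordia (limma adjusted p = 0.000137) and rose by 0.71 ± 0.045 in young fruiting bodies (limma adjusted p = 5.55e-05), the largest fall of any member at the primordium step and the largest rise at the step after it.

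**Figure D5:**
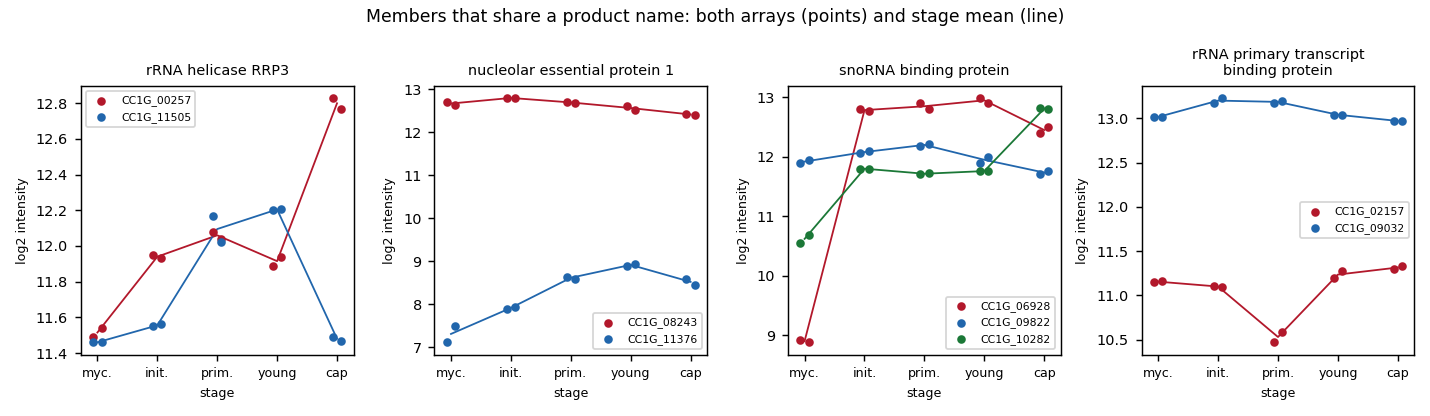
Log2 intensity at the 5 stages of the 9 members that share a product name, 1 panel per name; points are single arrays and lines join stage means. The helicases RRP3 part in mature caps, with 12.83 and 12.77 for CC1G_00257 and 11.49 and 11.47 for CC1G_11505; heights of different genes in a panel are not comparable.

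In the RefSeq gene order of assembly CC3, to which all 43 members matched, they lay on 12 chromosomes. With at most 3 genes between them there was a single pair, nucleolar protein family A member 2 (CC1G_00309) and spb4 (CC1G_00312). These differed in course: the mature cap stood 0.15 ± 0.0487 above mycelium for CC1G_00309 (a call lost without either mycelium replicate or mature cap replicate 1) and 1.53 ± 0.0402 above it for CC1G_00312.

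A further 29 genes were taken as other assembly factors by words in their product names. They include a tRNA-pseudouridine synthase (CC1G_04569) and genes listed only as pseudouridine synthase (CC1G_00392 and CC1G_11018), whose part in ribosome assembly was not tested. Among the 29, 2 (6.9%) had a range of at least 2-fold, against 11 of the 43 members, a difference that was not tested. Of these 29 genes, 18 rose and 2 fell in initials, 18 rose and none fell in primordia, and 18 fell and 6 rose in mature caps, with medians of 0.21, 0.14 and -0.27; the background shares are those given above. The helicase DBP10 (CC1G_06853) had their largest rise in initials, 0.58 ± 0.035. In mature caps 2 of them fell at least 2-fold against young fruiting bodies, where 14.8% of all genes did. A brix domain-containing protein (CC1G_14610), named for the domain of BRX1, fell by 1.30 ± 0.0273 and the small subunit factor pno1 (CC1G_13891) by 1.17 ± 0.0439. The helicase DBP7 (CC1G_03191), a large subunit factor, rose by 0.59 ± 0.0411. All 4 exosome genes, which trim rRNA ends and of which 3 are also among these 29, rose in initials, against 37.5% of all genes. In mature caps 2 of them rose and 2 fell, where 38.3% of all genes rose and 40.7% fell.

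Polymerase I and III genes whose names fell outside the rule numbered 7, of which 5 rose and 1 fell in initials, 6 rose and 1 fell in primordia, and 1 rose and 4 fell in mature caps, where 38.3% of all genes rose and 40.7% fell (37.5% and 33.7% in initials, 23.5% and 24.5% in primordia). Those named below were in part picked after their values were seen. The subunit common to RNA polymerase I (CC1G_01807) was the one that fell in initials, by 0.15 ± 0.0327. It then rose by 0.32 ± 0.0327 in primordia and fell by 0.71 ± 0.0327 in mature caps. An RNA polymerase III transcription factor (CC1G_02240) had the largest rise in initials, 1.16 ± 0.125, and then fell by 0.95 ± 0.125 in primordia. In mature caps the polymerase I subunit Rpa49 (CC1G_09123) fell by 0.95 ± 0.0278, while the gene listed only as RNA polymerase I (CC1G_03663) rose by 0.59 ± 0.0737.

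Ribosomal protein genes did not share every step with the members. In initials the median log2 change was 0.26 for the members and -0.20 for 88 ribosomal proteins, of which 73 fell and 1 rose. In primordia the medians were 0.17 for the members and 0.23 for the ribosomal proteins, of which 79 rose and none fell. In mature caps they were -0.23 for the members and -0.72 for the ribosomal proteins, of which 79 fell and 4 rose. Set against mycelium, the mature cap had a median of 0.15 for the members and -0.60 for the ribosomal proteins. These are counts and medians with no test between the lists, and the shares over all genes are those given above. The list of 88 includes a ubiquitin and ribosomal protein S27a (CC1G_15352) that was at or under the floor on all 10 arrays. Among the 88, 8 carry the particle sizes of organellar ribosomes. Of these, 7 fell and 1 rose in initials, and 6 fell and 2 rose in mature caps. A protein L13 (CC1G_07885) was the 1 that rose in initials, by 0.53 ± 0.0444, and it rose by 0.70 ± 0.0444 in mature caps. A protein L16 (CC1G_05237) rose by 0.59 ± 0.0435 in mature caps. The 50s ribosomal protein CC1G_02931 fell by 0.62 ± 0.0488 in initials and by 1.39 ± 0.0488 in mature caps. Without these 8 the median in mature caps was -0.74. The largest falls there were in proteins L17 (CC1G_09927), by 1.50 ± 0.0474, and S15a (CC1G_11854), by 1.44 ± 0.0558. Another gene named L17 (CC1G_06776) fell there by 0.65 ± 0.0408. In initials the largest falls were in L30 (CC1G_06191), by 0.67 ± 0.12, and L19 (CC1G_01249), by 0.64 ± 0.0434. Other entries of these names fell less in initials, L30 (CC1G_05694) by 0.27 ± 0.0532 and L19 (CC1G_04355) by 0.28 ± 0.0309.

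Averaging the replicate pairs of mycelium, initials and young fruiting bodies to 1 sample each left 9 members called in primordia against initials in place of 32, and 3 in young fruiting bodies against primordia in place of 17. The totals of the other comparisons stayed within 1.5 times. Called lower in mature caps than in mycelium were 7 members in place of 14. Of the 2 members called lower than mycelium in initials, and of the 2 in young fruiting bodies, 1 each was left.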

How the data were processed

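Total RNA of 10 samples was labelled with Cy3 and hybridised to NimbleGen arrays, per the labels' protocols. The deposited intensity values are linear summaries made by the authors with RMA (robust multi-array average), as the file names give it, 1 per gene and block of 5 probes; its settings are not given in the sources used here. For each value the deposited files also hold a count of the probes behind it. A column the authors deposited as a standard error, a score with no stated scale, was not used. The deposited series table equalled the geometric mean of both blocks (largest relative difference 4.98e-08%). Log2 values of the 2 blocks were averaged, without filter or pseudocount.

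All 10 arrays entered 1 fit per gene (R 4.3.3, limma 3.58.1, lmFit and eBayes) with stage as the only term and 5 residual degrees of freedom. Benjamini-Hochberg adjustment ran over 13320 genes and the threshold was 0.05. Errors of changes are limma standard errors (n = 2 arrays per stage). The fit was tested on simulated data. Named were the 5 largest rises and falls of members at each step, the widest and narrowest ranges, calls against the majority, the largest F per role and, from other lists, the 3 largest called changes each way in initials and in mature caps; further members are named to account for all. Members and lists were chosen with earlier results of these data known. RefSeq (assembly CC3) matched 13318 genes and served for gene order only, as the sources used here name no build for the arrays.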

Additional observations from a re-analysis of the deposited data

How the results depend on the processing

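Each count of members called was recomputed with quantile normalization, arrays centred on their medians, each block of probes alone, a filter on dim genes (at least 2 arrays above the floor, which kept all 43 members), array weights, only the 2 stages compared, without each replicate of the stages compared, with a replicate block and with replicate pairs averaged. Of the 258 changes of members (43 at 6 comparisons), 188 were called, of which 120 kept the call under all 13 settings that apply to a comparison, 68 lost it under at least 1 (38 of them without 1 replicate) and none reversed. Of the 70 changes not called, 26 passed the test under at least 1. The calls kept under all settings were 23 of 33 in initials against mycelium, 9 of 32 in primordia against initials, 3 of 17 in young fruiting bodies against primordia, 27 of 33 in mature caps against young fruiting bodies, 25 of 36 in mature caps against mycelium and 33 of 37 in young fruiting bodies against mycelium.

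Deviations of same-numbered arrays correlated at over 0.1 in 8 of 10 pairs of stages, and all pairs lay between -0.02 and 0.5. These values do not settle whether the replicate numbers pair the samples. With the replicate number as a replicate block, the members called were 33 in initials against mycelium, 34 in primordia against initials, 18 in young fruiting bodies against primordia, 31 in mature caps against young fruiting bodies, 36 in mature caps against mycelium, 38 in young fruiting bodies against mycelium and 43 for variation over the stages, each within 1.5 times the count without it. Over the members, the block lost 4 calls and gained 6. It lost those of CC1G_08766 in initials (limma adjusted p = 0.0503) and CC1G_04276 in mature caps (limma adjusted p = 0.0505), and of CC1G_03215 in primordia and CC1G_13765 in mature caps. Among the calls gained were CC1G_11384 in initials (limma adjusted p = 0.0475) and CC1G_08243 in primordia (limma adjusted p = 0.0484).

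Leaving out 1 replicate gave 29 to 31 members called in initials against mycelium (33 with all), 22 to 28 in primordia against initials (32), 9 to 18 in young fruiting bodies against primordia (17), 29 to 33 in mature caps against young fruiting bodies (33), 33 to 35 in mature caps against mycelium (36) and 33 to 37 in young fruiting bodies against mycelium (37), and all 43 for variation over the stages. The low values of young fruiting bodies against primordia came without young fruiting body replicate 1 (11) or replicate 2 (9). With the pairs of 3 stages averaged, chosen after seeing the data, 9 and 3 members were called in primordia and in young fruiting bodies; that setting leaves fewer samples. The promoter motif counts that had been planned were not run.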
